A study of Homo sapiens with 48 samples.

Results

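GLIS3 CRISPRko fibroblasts were compared with control fibroblasts after 6 h of stimulation with TGFβ and IL-1β, in 6 of the 48 RNA-seq libraries of the series. Members were taken by genotype and time, namely the 3 GLIS3 CRISPRko libraries and the 3 control libraries at 6 h, and no measured value was used to choose them. The series holds a CRISPRko arm and a CRISPRa arm of a human skin fibroblast line, sampled in triplicate before stimulation and at 6, 12 and 24 h, and it asks what the transcription factor GLIS3 does to the fibroblast response to both cytokines. In both 6 h groups the cells were immortalized skin fibroblasts that carried an IL-11 mNG reporter and Cas9, and both were stimulated with TGFβ and IL-1β at 10 ng/ml each.

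In the GLIS3 CRISPRko group the cells also carried a guide RNA against GLIS3, and the labels give their genotype as GLIS3 knock out. The control group carried a control guide RNA and is labelled WT, although the cell line field of these control samples reads as a GLIS3 knockout, as it does for all samples of the series. The reporter line came from a clone, and the knockouts were drug-selected populations rather than clones, so that each library can hold cells whose GLIS3 alleles were cut in different ways or not at all. The study describes its cell culture experiments in general as made with independent biological replicates, while the labels do not say of these libraries that they were separate cultures, so the p-values measure the spread between these libraries. The 18 CRISPRko and control libraries at 0, 12 and 24 h were fitted together with the 6 h libraries and so share in the estimate of the spread behind each 6 h p-value, while their levels are given only where named. The CRISPRa arm gave 6 further libraries at 6 h, which were fitted apart.

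GLIS3 is a Krüppel-like zinc finger transcription factor related to the GLI proteins of Hedgehog signalling, known for its roles in pancreatic β cells, the thyroid and the kidney. TGFβ signals to the nucleus mainly through SMAD proteins and drives matrix and contractile genes in fibroblasts. IL-1β signals through NF-κB and MAP kinases and drives chemokines, cytokines and metalloproteinases. Stromal cells exposed to both make IL-11, a cytokine of the IL-6 family that is linked to fibrosis.

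The study lists a GLIS3 guide and a control guide for CRISPRko, and these were taken to be the guides of the groups compared. Each sequence is given in lower case with the adjacent PAM read from the genome in capitals.
GLIS3 guide: ccacatcgaccagcgcaaagGGG
Control guide: gcagaccaattacaacacacTGG
In GRCh38 the GLIS3 guide had 1 perfect match, on the minus strand at chr9:4117887-4117906, and its predicted cut lies between bases 4117889 and 4117890. This is exon 4 of 11 of GLIS3, within its coding part, at codon 530 of 930, or 56.9% of the way through the coding sequence. A pattern search found 5 zinc fingers between codons 502 and 651, and the cut lies within that span but inside none of the 5 patterns. The control guide also had 1 perfect match, on the plus strand at chr12:123325581-123325600, in the coding part of exon 15 of 32 of SBNO1 (codon 626 of 1393). The paper calls the control guide of its RNA-seq non-targeting, and whether the listed sequence was the one used in these libraries was not tested. Editing at either site was not measured by these libraries. SBNO1 was at 33.8, 39.4 and 40.3 CPM in control and 47.7, 24.8 and 37.8 in GLIS3 CRISPRko, and the groups overlapped (log2 fold change -0.02, adjusted p = 0.985 by edgeR's quasi-likelihood test). CPM here and below are counts scaled to the normalized library size, except for the sums of cell type markers.

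Total counts were 4659152 to 5661982 in control and 2963560 to 3479573 in GLIS3 CRISPRko, against 2321990 to 10661004 over all 48 libraries. The 10 fibroblast markers were all detected and summed to 38988 to 47376 CPM in control and 35859 to 43676 CPM in GLIS3 CRISPRko. These marker sums and those of the other cell types are scaled to the raw library total, not the normalized one. Epithelial, endothelial, leukocyte and melanocyte markers each summed to at most 1.73 CPM in any of the 6 libraries, and of these 20 markers 12 had 0 counts in all 6. In bulk RNA, fewer cells of a type and less RNA per cell cannot be told apart.

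Control replicate 1 and GLIS3 CRISPRko replicate 2 stood apart from the others, and they did so according to how abundant a gene was. With the 10962 tested genes split into 5 equal groups by mean abundance, the median gene of the most abundant group was 0.23 below the 6-library mean in control replicate 1 and 0.18 above it in GLIS3 CRISPRko replicate 2 (log2 CPM). In the least abundant group the same libraries were 0.20 above and 0.09 below. The median log2 fold change at 6 h ran from -0.15 in the least abundant group to 0.14 in the most abundant, while at the other times pooled it ran from 0.04 to -0.02. Of the genes called at 6 h, 22 of the 30 higher and 2 of the 5 lower ones were in the most abundant group. The main counts below are given with and without these libraries, and their part in the single-gene results was not otherwise tested.

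**Figure D1:**
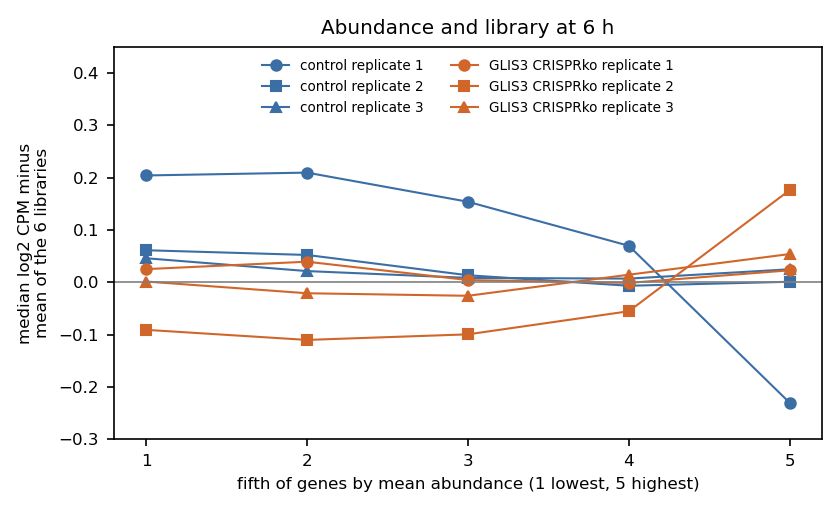
Departure of each 6 h library (median log2 CPM minus the mean of the 6 libraries) in 5 groups of genes ordered by mean abundance, with control in blue, GLIS3 CRISPRko in orange and symbols for replicates 1 to 3. Control replicate 1 ends at -0.23 and GLIS3 CRISPRko replicate 2 at 0.18 in the most abundant group, and the other 4 libraries lie between 0.00 and 0.05 there.

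GLIS3 itself was low in the edited cells. It was at 6.47, 4.78 and 4.42 CPM in control and at 1.37, 1.49 and 1.61 CPM in GLIS3 CRISPRko, from 45, 24 and 18 counts and 4, 3 and 5 counts. All 3 edited libraries lay below all 3 controls, with means of 1.49 ± 0.121 against 5.22 ± 1.10 CPM (SD, n = 3) and a fitted level 3.48-fold lower. The 6 h difference missed the threshold (log2 fold change -1.80 ± 0.48, SE; adjusted p = 0.0925 by edgeR).

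At 0, 12 and 24 h GLIS3 ranged over 1.45 to 3.80 with a median of 2.47 in 9 control libraries and over 0.144 to 1.63 with a median of 1.04 in 9 GLIS3 CRISPRko libraries. The mean difference over those times passed (log2 fold change -1.65, adjusted p = 0.000894 by edgeR), and so did that at 0 h (-2.55, adjusted p = 0.0355). In control cells GLIS3 rose from 0 h to 6 h (1.49, adjusted p = 0.0126), and its mean in control was highest at 6 h. In edited cells no 0 h library exceeded 3 counts. Against that floor the control mean at 0 h was at least 4.15-fold higher, and the edited mean at 6 h at least 3.29-fold higher. GLIS3 counts cover the whole gene and do not show whether the remaining transcripts kept their reading frame. The antisense gene GLIS3-AS1 lies within GLIS3 and was counted as a gene of its own, with 0 counts in each of the 6 libraries at 6 h. The counting strand is not given, and whether antisense reads entered the GLIS3 counts was not tested.

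**Figure D2:**
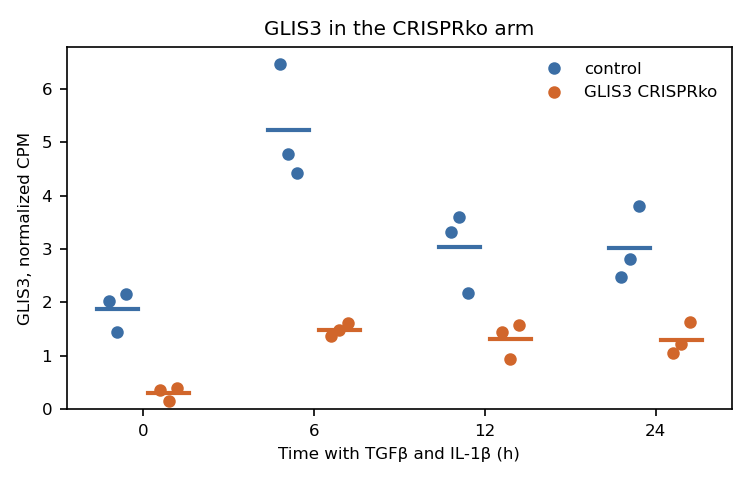
GLIS3 level (normalized CPM) in each of the 24 control (blue) and GLIS3 CRISPRko (orange) libraries at 0, 6, 12 and 24 h with TGFβ and IL-1β, with a line at each group mean. At 6 h the control libraries lie at 6.47, 4.78 and 4.42 CPM, and the edited libraries at 1.37, 1.49 and 1.61 CPM.

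At 6 h 35 of 10962 genes (0.319%) passed an adjusted p of 0.05 in edgeR's quasi-likelihood test. Of these 30 were higher in GLIS3 CRISPRko (0.274% of genes tested) and 5 were lower (0.0456%). The split moved with the method, to 2 higher and 3 lower with limma on log2(TPM + 1), where 4 of the 33 genes described here still passed, and to 167 higher and 14 lower with DESeq2. With DESeq2 27 of the 33 passed and the other 6 had no adjusted p. DESeq2 gave an adjusted p to 3236 genes and limma to 10962, so their counts are over unlike sets of genes. The genes with more RNA in the edited cells included secreted or membrane-bound signals (EREG, CXCL2, ANGPT1, DLL4), proteases, peptide-processing enzymes and protease inhibitors (MMP1, PAM, SERPINB7), an ER stress pair (HERPUD1, DNAJB9) and basement membrane or vascular matrix genes (NID2, COL8A1). Those with less were DCN, TGFBI, SFRP1, AKAP12 and NEXN. Of the 35, 33 genes are described singly, 28 of them higher.

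The 6 libraries did not overlap between groups for any of the 35 genes, a property shared by 1638 genes or 14.9% of all those tested. Their absolute log2 fold changes ran from 0.69 to 2.05. The median over all genes was -0.03 with signs kept, so it is no background for absolute changes. Of the 28 described genes that were higher, 21 had their highest value in GLIS3 CRISPRko replicate 2 and 18 had their lowest in control replicate 1. Leaving out control replicate 1 left 5 genes past the threshold, leaving out GLIS3 CRISPRko replicate 2 left 9, and leaving out both left 4. With the 6 libraries fitted alone edgeR called 54 genes, 26 of them shared with the 35. With an offset that followed abundance within each library, 49 genes passed, 30 of the 33 described genes among them.

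Of the 33 described genes, 5 passed whichever of the 6 libraries was left out. They were SERPINB7, MOXD1, HERPUD1, EREG and DCN. Without both libraries that stood apart, SERPINB7, MOXD1, HERPUD1 and DCN still passed. All 33 genes kept their direction in each of 16 alternative analyses. Their groups did not overlap at 6 h, so a kept direction was largely fixed in advance and is no test of robustness.

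SERPINB7 (chr18:63752935-63805376, GRCh38), an intracellular serine protease inhibitor of the serpin family, had the lowest p. It was at 58.5, 54.3 and 60.9 CPM in control and 126, 152 and 149 CPM in GLIS3 CRISPRko, a fitted 2.45-fold rise in which every edited library lay more than 2-fold above every control library. The log2 fold change was 1.29 ± 0.16 (SE), with an adjusted p of 2.35e-05 by edgeR. MOXD1 (chr6:132296055-132401475), a monooxygenase related to dopamine β-hydroxylase, was at 29.2, 26.7 and 25.03 CPM in control and 60.7, 58.97 and 81.3 CPM in the edited cells. The control values were tight and edited replicate 3 was the highest (log2 fold change 1.31 ± 0.18, adjusted p = 9.98e-05 by edgeR).

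DCN (chr12:91140484-91183217) encodes decorin, a small leucine-rich proteoglycan that binds collagen fibrils and TGFβ. Its level was 29.2, 43.6 and 37.8 CPM in control and 10.6, 13.4 and 12.6 CPM in GLIS3 CRISPRko, a fitted 3.02-fold lower level. The lowest control library was control replicate 1, and it was still more than 2-fold above the highest edited library (log2 fold change -1.60 ± 0.26, adjusted p = 0.00148 by edgeR). DCN passed in each of the 14 alternative analyses that gave it an adjusted p, and no other called gene passed in every one that did so for it.

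The other 4 genes that were lower spanned matrix, WNT signalling and the cytoskeleton. TGFBI, a TGFβ-induced matrix protein that binds integrins and collagen, was at 595, 551 and 621 CPM in control and 236, 324 and 229.8 CPM in GLIS3 CRISPRko (log2 fold change -1.16 ± 0.24, adjusted p = 0.0208 by edgeR). SFRP1, a secreted antagonist of WNT ligands, was at 23.7, 21.5 and 13.01 CPM in control and 7.89, 3.96 and 8.39 CPM in edited cells (-1.49 ± 0.32, adjusted p = 0.0295). Its control replicate 3 lay closer to the edited libraries than to the other controls. AKAP12, a scaffold for protein kinase A, was at 75.8, 81.99 and 77.6 CPM against 43.6, 49.6 and 38.4 CPM (-0.85 ± 0.16, adjusted p = 0.0112). NEXN, an actin-binding protein, was at 40.2, 38.01 and 37.1 CPM against 26.4, 21.8 and 19.04 CPM (-0.78 ± 0.17, adjusted p = 0.0295). Of these 4 genes AKAP12 passed in 3 of the 6 analyses that left out a library, TGFBI in 2, SFRP1 in 1 and NEXN in 1.

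**Figure D3:**
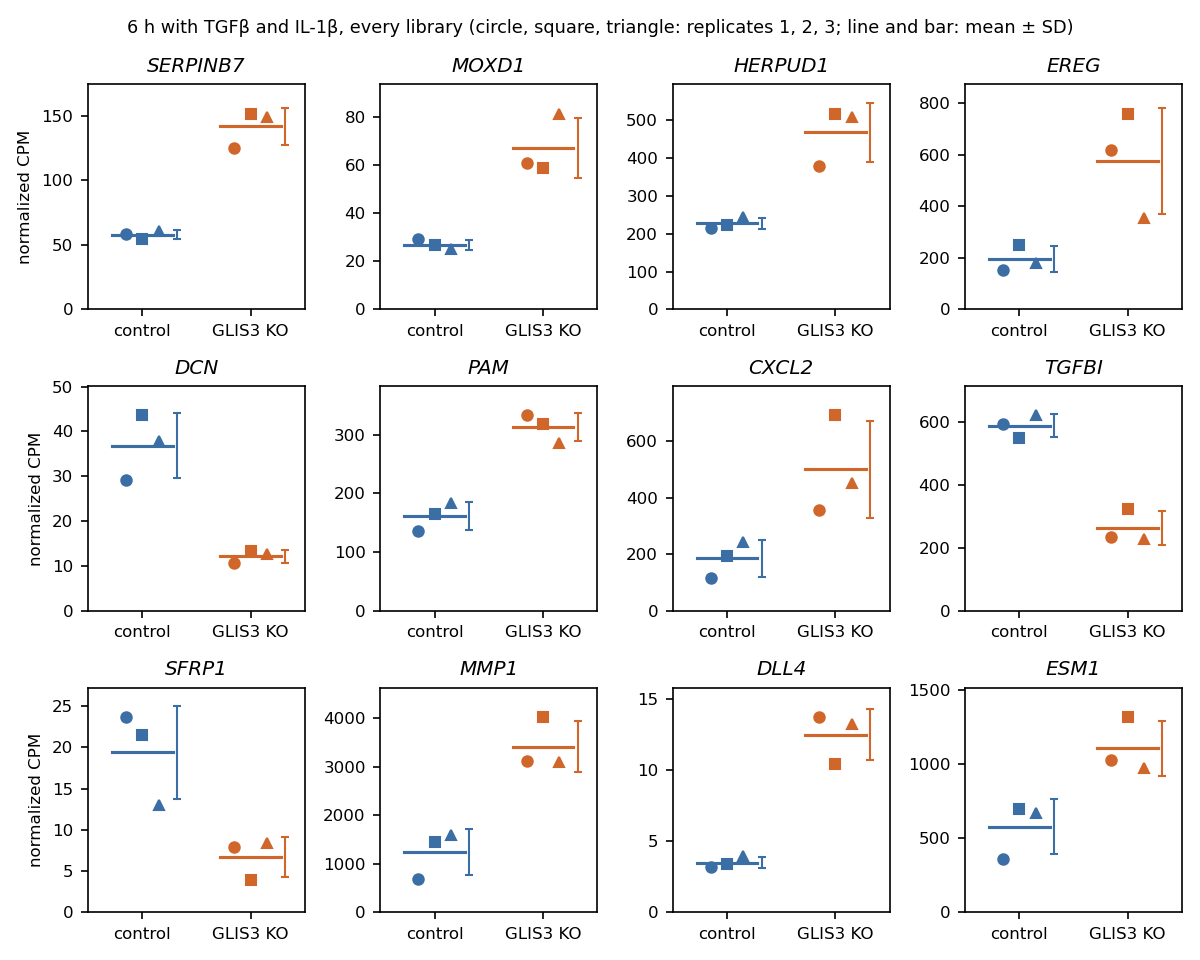
Normalized CPM at 6 h in every control (blue) and GLIS3 CRISPRko (orange) library for 12 genes, with circles, squares and triangles for replicates 1, 2 and 3, lines at the group mean and bars for ± SD; each axis starts at 0. The groups do not overlap in any panel, and in EREG, CXCL2, MMP1 and ESM1 the highest edited library is replicate 2 while the lowest control is replicate 1.

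Among secreted and membrane-bound signals, EREG and CXCL2 had the lowest p-values. EREG encodes epiregulin, a ligand of the EGF receptor family, and was at 155, 249.96 and 179.9 CPM in control and 617, 759 and 354 CPM in GLIS3 CRISPRko. The edited libraries spread more than the controls, with replicate 3 the closest to the control range (log2 fold change 1.56 ± 0.25, adjusted p = 0.00128 by edgeR). CXCL2, a neutrophil-attracting chemokine, was at 116, 196 and 245 CPM in control and 356, 692 and 454 CPM in edited cells (1.43 ± 0.26, adjusted p = 0.00527). DLL4, a Notch ligand, was low in both groups, at 3.16, 3.38 and 3.93 CPM against 13.7, 10.4 and 13.2 CPM (1.85 ± 0.39, adjusted p = 0.0236). ANGPT1, a ligand of the endothelial receptor TEK, was at 43.8, 46.8 and 61.9 CPM against 89.9, 94.7 and 81.01 CPM (0.80 ± 0.17, adjusted p = 0.0208). ESM1, a secreted proteoglycan also called endocan, was at 362, 697 and 673 CPM against 1030.2, 1319 and 974 CPM (0.94 ± 0.21, adjusted p = 0.036). CXCL2 passed in 4 of the 6 analyses without a library, ANGPT1 in 2, ESM1 in 1 and DLL4 in 0.

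In the extracellular matrix and its enzymes, the genes that rose were MMP1, NID2 and COL8A1. MMP1, the interstitial collagenase, was the most abundant of these, at 697, 1456 and 1585 CPM in control and 3119, 4023 and 3090.1 CPM in GLIS3 CRISPRko. Control replicate 1 was below the other 2 controls (log2 fold change 1.45 ± 0.32, adjusted p = 0.0301 by edgeR). With a library left out, MMP1 passed in 0 of 6 analyses. NID2, the basement membrane protein nidogen-2, was at 27.6, 29.1 and 32.4 CPM against 63.1, 51.04 and 50.997 CPM (0.90 ± 0.17, adjusted p = 0.0121) and passed in 4 of those 6. COL8A1, a short-chain collagen of vessel walls, was at 46.4, 57.5 and 65.3 CPM against 88.1, 105 and 80.4 CPM (0.69 ± 0.16, adjusted p = 0.0461) and passed in 0. PAM, the enzyme that amidates peptide hormones in the secretory pathway, was at 137, 165 and 184 CPM against 333, 319 and 286 CPM (0.95 ± 0.16, adjusted p = 0.00277) and passed in 5.

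HERPUD1 and DNAJB9 are genes of the endoplasmic reticulum (ER) stress response. HERPUD1 (chr16:56932142-56944864), a membrane protein of ER-associated degradation, was at 216, 222 and 244 CPM in control and 378, 517 and 509.6 CPM in GLIS3 CRISPRko. The control libraries lay within a narrow range, and each edited library was more than 1.5-fold above the highest of them (log2 fold change 1.04 ± 0.15, adjusted p = 0.000397 by edgeR). DNAJB9, an ER co-chaperone of the HSP40 family, was at 48.9, 55.3 and 41.5 CPM against 80.2, 87.7 and 103 CPM (0.89 ± 0.18, adjusted p = 0.0157). HERPUD1 passed in 6 of the 6 analyses without a library and DNAJB9 in 2, and DNAJB9 did not pass without both libraries that stood apart. A list of unfolded protein response genes, drawn up after these 2 values were seen, had 25 tested members. HERPUD1 and DNAJB9 were the 2 that passed, 20 lay above 0, and the median was 0.33. The median and the count above 0 include these 2 genes and were not checked in the alternative analyses. Over all genes tested 0.319% passed, 46.2% lay above 0 and the median was -0.03.

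Inside the cell, the genes that rose included a receptor adaptor, redox enzymes and cytoskeletal genes. EDARADD, the adaptor of the ectodysplasin receptor, was at 38.8, 40.002 and 54.7 CPM against 70.99, 174 and 100.4 CPM, with edited replicate 2 far above the other edited libraries (1.36 ± 0.25, adjusted p = 0.00701 by edgeR). Of the redox enzymes, glutaredoxin GLRX rose by 0.84, peroxiredoxin PRDX6 by 1.06 and the aldo-keto reductase AKR1C3 by 1.48 on the log2 scale, with adjusted p-values of 0.0157, 0.0418 and 0.0295 by edgeR. AKR1C3 was low, at 3.74, 3.98 and 4.17 CPM against 10.97, 10.9 and 11.3 CPM, and its libraries were tight within each group. The small heat shock protein gene HSPB8 rose by 0.74 and the actin-severing gelsolin gene GSN by 0.84, with adjusted p-values of 0.0295 and 0.0336. The long non-coding RNA MIR4435-1HG rose by 0.79 (adjusted p = 0.0402). Of the 6 analyses without a library, EDARADD passed in 4, GLRX in 3, MIR4435-1HG in 2, PRDX6 in 1, and HSPB8, GSN and AKR1C3 in none.

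For 8 of the called genes the counts are uncertain, since reads can be shared with near-identical copies or with genes that use the same exons. The smooth muscle actin ACTG2 was at 33.5, 26.9 and 37.1 CPM in control and 71.7, 199 and 105 CPM in GLIS3 CRISPRko, and the cardiac actin ACTC1 at 40.7, 16.9 and 44.2 CPM against 72.02, 258 and 97.8 CPM. In both genes edited replicate 2 was the highest library by a wide margin (log2 fold changes 1.93 ± 0.39 and 2.05 ± 0.45, adjusted p = 0.0157 and 0.0295 by edgeR). The tubulin TUBA4A (1.77, adjusted p = 0.0422), the interferon-induced IFITM2 (1.56, adjusted p = 0.0295) and the non-classical class I gene HLA-E (1.44, adjusted p = 0.0373) were also highest in that library. RPSAP9 and RPSAP52, pseudogenes of the laminin receptor RPSA, rose by 1.28 and 1.71. AP3S2, an adaptor complex subunit, rose by 0.74 (adjusted p = 0.0295), while the read-through transcript C15orf38-AP3S2 that shares its exons had a log2 fold change of -2.37 (adjusted p = 0.0691). Of the 6 analyses without a library, ACTG2, ACTC1, RPSAP9 and AP3S2 passed in 2, and TUBA4A, IFITM2, HLA-E and RPSAP52 in 1.

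A list of 15 genes that share sequence or exons with these, drawn up after the values were seen, had 0 members past the threshold by edgeR. Its median log2 fold change was 0.91, and 13 lay above 0. Over all genes 0.319% passed, the median was -0.03 and 46.2% lay above 0. Edited replicate 2 was again the highest library for ACTA2, at 751, 862 and 979 CPM in control and 1138, 2961 and 1485 CPM in GLIS3 CRISPRko, and the part of that library in the list was not tested. Among the members HLA-C was at 1.55, IFITM3 at 1.27, ACTA2 at 1.11, TUBA1A at 1.06, ACTB at 0.69 and RPSA at 0.50.

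The same comparison at the other times came from 18 other libraries, which share with the 6 h libraries the estimate of the spread. Over 0, 12 and 24 h together 273 of 10962 genes passed (2.49%), and 16 of the 35 genes called at 6 h were among them. Of these 16, 15 had the sign they had at 6 h. SERPINB7 ranged over 52.8 to 146 with a median of 61.4 CPM in 9 control libraries and over 104 to 217 with a median of 124 CPM in 9 edited ones (mean log2 fold change 0.94 ± 0.09, adjusted p = 3.31e-08 by edgeR). DCN ranged over 27.5 to 58.4 with a median of 41.2 CPM in control and over 8.69 to 29.04 with a median of 16.4 CPM in GLIS3 CRISPRko (-1.20 ± 0.13, adjusted p = 8.02e-07). MOXD1 ranged over 19.4 to 44.3 with a median of 26.2 CPM and 42.3 to 81.96 with a median of 62.6 CPM (1.20 ± 0.10, adjusted p = 4.08e-09).

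The matrix, WNT and scaffold genes of the 6 h set mostly passed at the other times too. TGFBI had a mean log2 fold change of -1.02 there, SFRP1 of -1.44, AKAP12 of -0.62, NID2 of 0.72 and COL8A1 of 0.92, and all 5 passed. DLL4 (1.83), ESM1 (0.81), HSPB8 (0.73), PAM (0.53), PRDX6 (0.51), GSN (0.50) and ANGPT1 (0.35) passed in the direction they had at 6 h. MMP1 was at 0.63 with an adjusted p of 0.0548 by edgeR. RPSAP9 passed in the opposite direction (-0.58, adjusted p = 0.0466).

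Time by time, 33 genes passed at 0 h (0.301%), 9 at 12 h (0.0821%) and 23 at 24 h (0.210%). Of the 35 genes called at 6 h, 9 also passed at 0 h, 5 at 12 h and 5 at 24 h, each with the 6 h sign. A same sign without regard to the threshold was found for 29, 22 and 24 of them, against 55.0%, 54.3% and 48.9% of all genes tested.

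**Figure D4:**
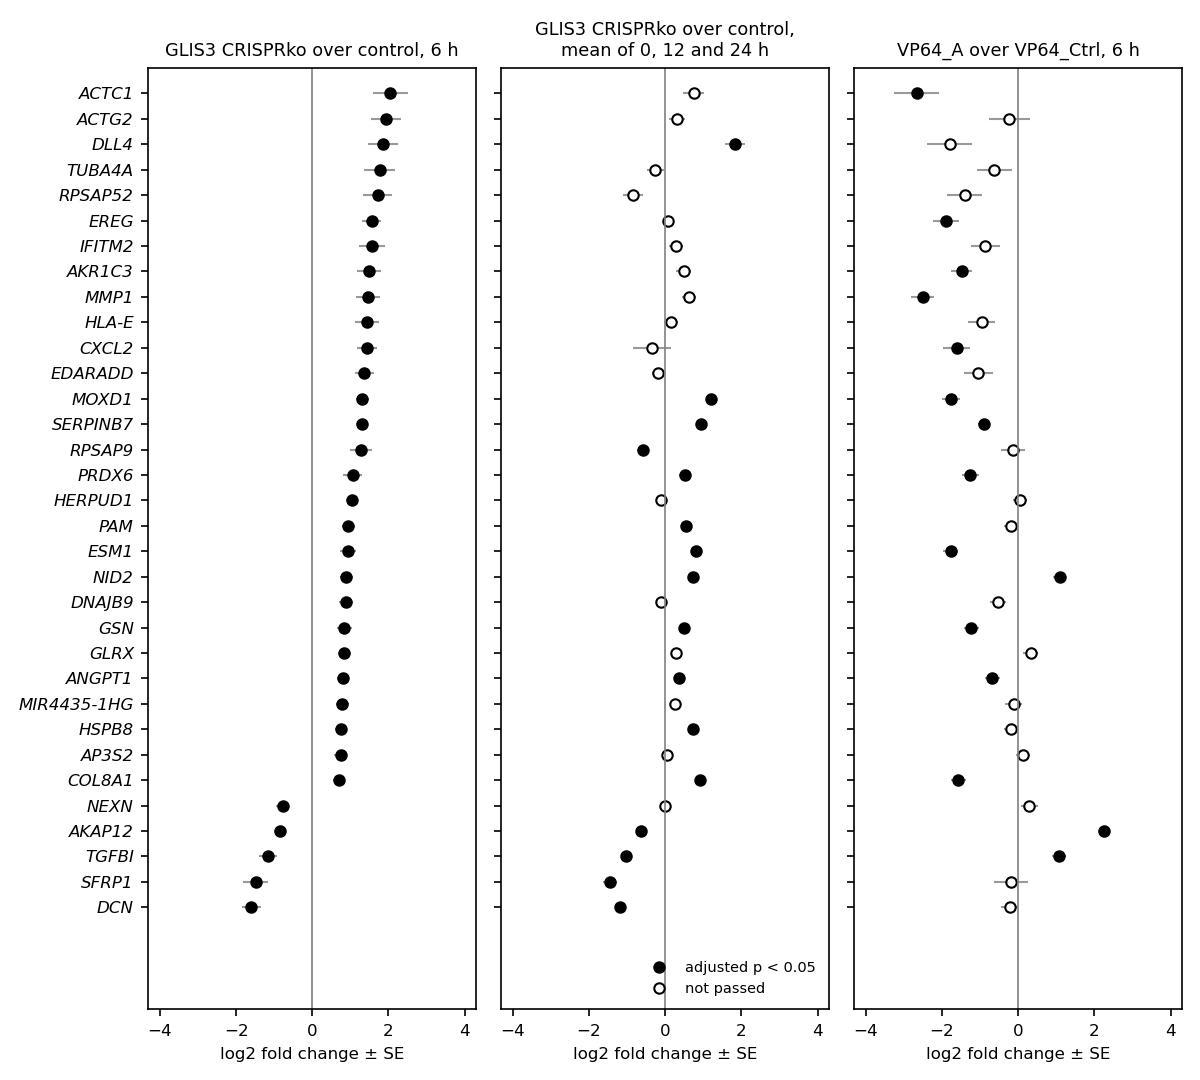
Log2 fold change ± SE of the 33 described genes in GLIS3 CRISPRko over control at 6 h (left), in the mean of the same difference at 0, 12 and 24 h (middle) and in VP64_A over VP64_Ctrl at 6 h (right), with filled points for an adjusted p below 0.05. SERPINB7, MOXD1, DCN, TGFBI and SFRP1 keep their sign and pass in the middle panel, whereas EREG (0.08) and HERPUD1 (-0.12, a mean over effects of both signs) lie near 0 there.

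A direct test of the 6 h effect against the mean effect at the other times passed for 11 genes (0.10% of 10962), all with a higher value at 6 h. Among the genes called at 6 h these included HERPUD1, EREG, EDARADD and DNAJB9. For HERPUD1 the difference between the effects was 1.16 ± 0.18 (adjusted p = 0.00211 by edgeR). HERPUD1 lay at 84.8 to 93.7 CPM in control and 107 to 119 CPM in GLIS3 CRISPRko at 0 h, at 379.7 to 486 against 347 to 373 CPM at 12 h, and at 212 to 217 against 156 to 170.5 CPM at 24 h. The edited libraries were thus all above the controls at 0 h and all below them at 12 and 24 h. The log2 fold changes at these times, 0.30, -0.28 and -0.39, did not pass (adjusted p = 0.455, 0.675 and 0.383 by edgeR). EREG ranged over 26.7 to 248 with a median of 59.4 CPM in control and 17.9 to 287 with a median of 55.4 CPM in edited cells at those times (difference of effects 1.48 ± 0.29, adjusted p = 0.0236). EDARADD had a difference of 1.55 and DNAJB9 of 1.01. This count moved with single libraries, and was 1 without control replicate 1, 1 without GLIS3 CRISPRko replicate 2, 3 without control replicate 3, and 0 by edgeR with control replicate 1 and GLIS3 CRISPRko replicate 2 both left out, where 577 genes had an unadjusted p below 0.05.

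The cytokine response was read from control cells at 6 h against 0 h, a comparison that shares its 3 control libraries at 6 h with the comparison above, so the values are only set side by side. In control cells 1744 of 10962 genes passed (15.9%), and of the 35 genes called at 6 h 15 were among those that rose and 2 among those that fell. EREG rose by 2.75 on the log2 scale in control cells and by 4.46 in edited cells. ESM1 rose by 5.43 and 5.76. CXCL2 was at most 3 counts per library at 0 h, so that its 6 h mean was at least 328-fold above the floor in control cells and at least 1107-fold in edited cells. HERPUD1 rose by 1.32 in control and 2.06 in edited cells, and DNAJB9 by 1.17 and 2.02. SERPINB7 and DCN did not pass in control cells (-0.09 and -0.25, adjusted p = 0.775 and 0.519 by edgeR).

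IL11, whose reporter the line carries, showed no detectable difference at 6 h. It was at 11.9, 17.9 and 12.03 CPM in control and 15.4, 16.8 and 9.04 CPM in GLIS3 CRISPRko, and the groups overlapped (log2 fold change -0.04 ± 0.35, adjusted p = 0.986 by edgeR). In control cells it rose by 2.59 from 0 h to 6 h. The IL11 effects at 0, 12 and 24 h were -1.04, -1.02 and -0.08. Their mean of -0.71 ± 0.24 did not pass (adjusted p = 0.117 by edgeR). LIF, another IL-6 family cytokine, was at 525, 1072 and 912 CPM in control and 646, 900.4 and 544 CPM in edited cells (-0.26 ± 0.24, adjusted p = 0.737). FAP, a membrane protease of activated fibroblasts, was at -0.02 ± 0.14, the gelatinase MMP2 at -0.07 ± 0.26 and the prostaglandin F receptor PTGFR at -0.32 ± 0.35, with adjusted p-values of 0.978, 0.954 and 0.793 by edgeR.

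The type VI collagen genes did not pass at 6 h, with log2 fold changes below 0 in all 3. COL6A1 was at 105, 74.2 and 91.5 CPM in control and 62.8, 70.4 and 55.5 CPM in GLIS3 CRISPRko, where the groups did not overlap but the test did not pass (-0.53 ± 0.17, adjusted p = 0.198 by edgeR). At the other times its mean log2 fold change was -0.66 and passed (adjusted p = 8.34e-05). COL6A2 was at -0.76 ± 0.23 (adjusted p = 0.156) and COL6A3 at -0.20 ± 0.21 (adjusted p = 0.779) at 6 h.

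Gene lists chosen for this tissue and these cytokines held few called genes, beside a background of 0.319% of genes called, a median of -0.03 and 46.2% of genes above 0. No set test was run, and with TPM scaling, which put the median of all genes at -0.32, the chemokine median was the 1 of the 17 plotted lists that stayed above 0 (0.21). The positive medians given here for the NF-κB targets, IL-6 family, early TGFβ targets, metalloproteinases, contractile genes, ATF4 targets and p53 targets became -0.29, -0.14, -0.26, -0.13, -0.03, -0.23 and -0.11 on that scale. Of 10 tested chemokine genes CXCL2 passed, CXCL3 was at 0.97 (adjusted p = 0.0601 by edgeR) and CXCL1 at 0.95 (adjusted p = 0.0967), 8 lay above 0, and the median was 0.54. None of 13 IL-6 family, interleukin and colony-stimulating factor genes passed, with IL1B at 1.11 (adjusted p = 0.082), CSF1 at 0.46, CSF2 at 0.65 and a median of 0.27. None of 23 NF-κB target and feedback genes passed (median 0.07), with SOD2 at 0.76, ICAM1 at 0.43 and NFKBIZ at 0.31. In control cells all 23 of them and 9 of the 10 chemokine genes rose from 0 h to 6 h. None of 14 AP-1 and immediate early genes passed (median -0.10), with JUN at -0.63 and MYC at -0.27.

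On the TGFβ side, TGFBI passed as lower among 20 early targets and feedback genes, whose median was 0.07. The fibrillar collagens had 7 tested genes, 0 called by edgeR and a median of -0.18, with COL5A1 at -0.44 and COL3A1 at -0.23. Of 14 other collagen genes COL8A1 passed (median -0.11). Among 19 matrix and matricellular genes DCN and TGFBI passed as lower, LTBP1 was at -0.79 (adjusted p = 0.0711 by edgeR) and the median was 0.01, which became -0.27 both with abundance-dependent offsets and without the 2 libraries that stood apart. MMP1 was the 1 called gene among 14 metalloproteinases and TIMPs (median 0.16), with MMP10 at 1.38 (adjusted p = 0.155).

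The contractile genes all had a log2 fold change above 0 (18 of 18), of which ACTG2 passed, and their median of 0.32 became -0.04 with abundance-dependent offsets and -0.01 without the 2 libraries that stood apart. None of 18 TEAD and YAP targets passed (median 0.02), and none of 7 tested Hedgehog, GLI and GLIS genes did (median -0.01). In the list of 29 inflammation-associated fibroblast genes MMP1 passed as higher and TGFBI as lower (median 0.01). The study picked that list partly on its own fibroblast data, so its count is not independent evidence of a direction. Medians this close to 0 took either sign, and of 16 alternatives the main sign held in 8 for the matrix genes, 10 for the TEAD and YAP targets, 10 for the Hedgehog, GLI and GLIS genes and 5 for the inflammation-associated fibroblast genes.

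**Figure D5:**
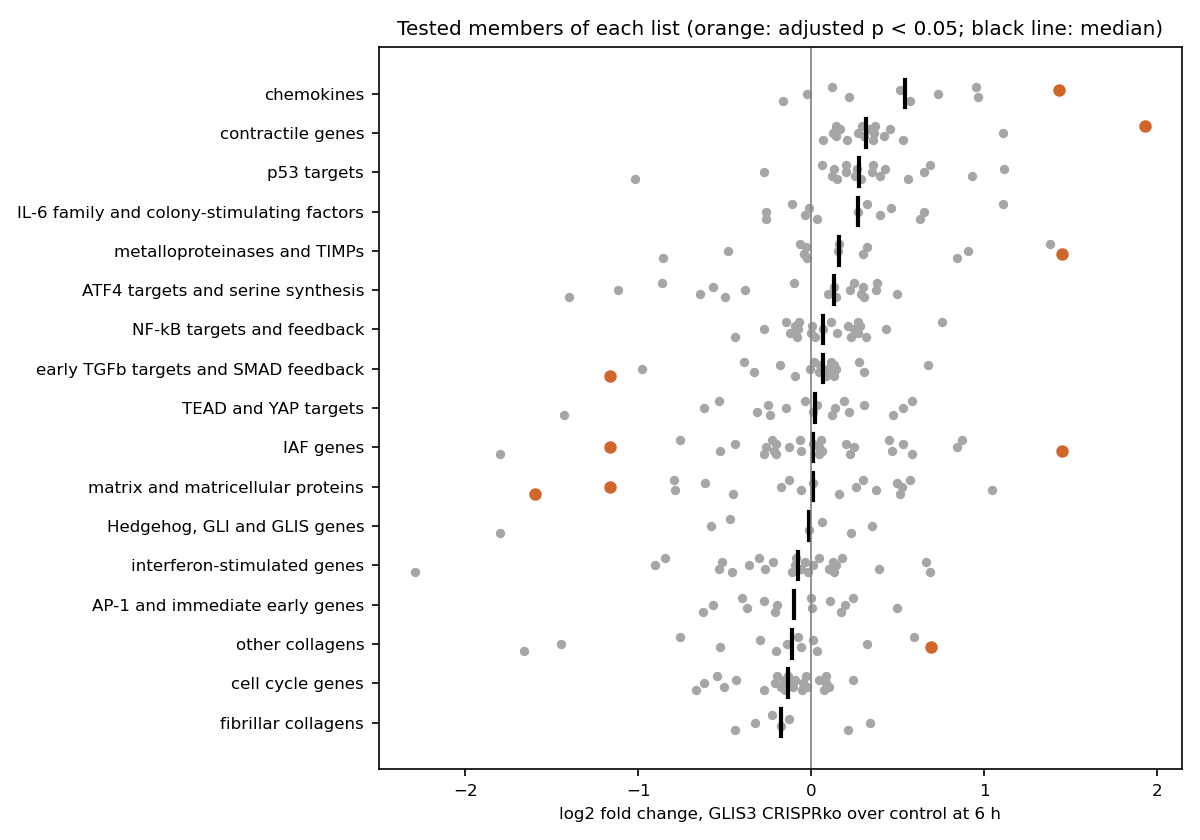
Log2 fold change at 6 h (GLIS3 CRISPRko over control) of every tested member of 17 gene lists, 1 point per gene, with called genes in orange and a black line at each list's median. The chemokine list has the highest median (0.54) and the fibrillar collagens the lowest (-0.18), and the contractile genes all lie to the right of 0 in this normalization, which abundance-dependent offsets move to a median of -0.04.

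The p53 target, cell cycle, ATF4 target and interferon-stimulated lists gave no calls by edgeR. Of 20 p53 targets 18 lay above 0, with a median of 0.28 and CDKN1A, the inhibitor p21, at 1.12 (adjusted p = 0.121). Of 25 cell cycle genes 6 lay above 0 (median -0.13), and the replication licensing gene MCM6 was at -0.67 (adjusted p = 0.0573). The ATF4 target and serine synthesis genes (19 tested) had a median of 0.13, with ASNS at -1.40 (adjusted p = 0.131), and the 26 interferon-stimulated genes had a median of -0.07. Among the 3 tested EGF receptor ligands, a list drawn up after the EREG value was seen, EREG passed and the median was -0.13.

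Of the annotated genes nearest to GLIS3 (chr9:3824127-4348392), 10 were in the table, 4 were expressed enough to test and 0 passed by edgeR. The nearest of them, SLC1A1, starts 142076 bp away and was at 7.19, 4.18 and 5.40 CPM in control and 9.60, 7.93 and 8.71 CPM in GLIS3 CRISPRko (0.63 ± 0.32, adjusted p = 0.471). CDC37L1 was at 0.42, AK3 at 0.08 and SMARCA2 at -0.17.

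The CRISPRa arm used the same line with dCas9-VP64, a nuclease-dead Cas9 fused to an activator, in place of Cas9, and the same stimulation. At 6 h GLIS3 was at 35.6, 30.5 and 36.7 CPM in the VP64_A libraries and at 4.01, 6.31 and 3.48 CPM in the VP64_Ctrl libraries. Those names are from the sample descriptions, and the titles give them the other way round. Directions are VP64_A over VP64_Ctrl, and the titles would reverse every sign given for this arm. By the titles GLIS3 would be lower in the cells named for its activation than in their control. In VP64_A over VP64_Ctrl GLIS3 passed (log2 fold change 2.86, adjusted p = 1.02e-09 by edgeR), as did 413 of 10980 genes (3.76%). IL11 was also higher in VP64_A (2.64 ± 0.25, adjusted p = 5.15e-09 by edgeR). These 6 libraries share no sample with the CRISPRko comparison. Of the 35 genes called at 6 h in GLIS3 CRISPRko, 29 had the opposite sign in VP64_A and 15 of these passed, whereas 6 had the same sign and 1 passed. Over all genes tested in both arms 44.03% had the same sign.

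EREG was at 277, 252 and 149.8 CPM in VP64_A and 601, 806 and 1125 CPM in VP64_Ctrl (-1.89 ± 0.33, adjusted p = 0.000241 by edgeR). MMP1 had a log2 fold change of -2.51, MOXD1 of -1.77, ESM1 of -1.77, CXCL2 of -1.61, COL8A1 of -1.57 and SERPINB7 of -0.90, and all 6 passed. VP64_Ctrl replicate 3, with the fewest counts of the series (2321990), was the highest library for EREG, CXCL2, MMP1, ESM1 and SERPINB7, but not for MOXD1. Without that library 311 genes passed, and the part of abundance in the single-gene results of this arm was not tested. TGFBI (1.08) and AKAP12 (2.25), which were lower in GLIS3 CRISPRko, were higher in VP64_A and passed. DCN (-0.22, adjusted p = 0.763) and HERPUD1 (0.05, adjusted p = 0.953) did not pass. NID2 was the gene that passed with the same sign in both arms (1.09). COL6A1 was higher in VP64_A (2.09) and passed.

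Promoters from RefSeq (GRCh38, 250 bases before to 50 bases after the annotated start) were matched for 23 of the 33 described genes and searched on both strands for 5 short motifs. A GLIS-type G-rich core, TGGGGGGT, was found in 1 of the 23 (4.35%), against 1.33% of 27305 promoters. It lay 142 bases before the start of NEXN, and the 30-base window at chr1:77888471-77888500 (plus strand) is shown because it is the single match to this core, which is in capitals.
NEXN promoter window: aacggcggaggTGGGGGGTtgggggaactg
The NF-κB pattern, GGGA and TTCC with any 2 bases between them, was found in CXCL2 and GLRX, or 8.70% against 1.63% of all promoters. The CXCL2 window at chr4:74099254-74099283 (minus strand), with the match in capitals 78 bases before the start, is shown because CXCL2 is the chemokine gene that passed.
CXCL2 promoter window: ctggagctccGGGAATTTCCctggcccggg
The AP-1 pattern TGANTCA was found in 1 promoter (4.35% against 7.76% of all), the TEAD pattern GGAATG in 3 (13% against 14%), and the ER stress element, CCAAT and CCACG with any 9 bases between them, in 0 (against 0.0806%). With so rare a pattern, its absence from 23 promoters does not set these genes apart from the rest. The GGAATG matches were in EREG, GLRX and NEXN and did not overlap the NF-κB or GLIS core matches. A match describes letters in the window and no binding was measured in these libraries.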

How the data were processed

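RNA from GLIS3 CRISPRko and control fibroblasts was sequenced as Nextera XT libraries on a NextSeq 500. The authors used Trim Galore for trimming, SortMeRNA against ribosomal reads, STAR for alignment to GRCh38 and Salmon for quantification, and deposited 29744 genes as estimated counts and as TPM, which are scaled for length and library total. Of the deposited estimated counts 6.38% were not whole numbers. The counting strand is not given in the sources used here.

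Counts were rounded and the 24 libraries of the CRISPRko arm were fitted together in 8 groups with edgeR 4.0.16 in R 4.3.3 (TMM, filterByExpr with a minimum count of 10 and total of 15, quasi-likelihood F test, two-sided, Benjamini-Hochberg over all tested genes, called at an adjusted p under 0.05). The CRISPRa arm was fitted the same way. The SE of a log2 fold change was taken as its absolute value divided by the square root of the F statistic. CPM used TMM-scaled library sizes, except for the marker sums, which used raw library totals. A level of 3 counts per library served as the floor. The script was checked on simulated counts.

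Alternatives were DESeq2 1.42.0, its size factors, no filter, limma 3.58.1 on log2 TPM with pseudocounts of 1 and 0.1, the compared libraries alone, a replicate block and each library left out. Abundance-dependent loess offsets and the joint removal of 2 libraries were chosen after seeing the data. No libraries of a group were duplicates (0 identical among 48 pairs, lowest chi-square per degree of freedom 3.59).

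Named genes were those called at 6 h, those the study names, the called and the 3 lowest-p members of each list, and the neighbours of GLIS3. Members and lists were chosen with earlier results of these data known, and the unfolded protein response, EGF receptor ligand and shared-sequence lists after the values were seen. Positions are from the GRCh38 annotation, with 21877 genes matched by symbol and 1601 by synonym. Some of the genes that these rules name are not reported here.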

Additional observations from a re-analysis of the deposited data

Results flagged for a closer look

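Genes whose 6 h effect differed from the mean effect at 0, 12 and 24 h in a direct test (edgeR's quasi-likelihood test of the interaction) are listed here with their differences on the log2 scale, and no explanation of them was tested. HERPUD1 differed by 1.16 (adjusted p = 0.00211), with an effect of 1.04 at 6 h and a mean of -0.12 elsewhere, made of 0.30 at 0 h, -0.28 at 12 h and -0.39 at 24 h. DNAJB9 differed by 1.01 (0.89 and -0.12), EREG by 1.48 (1.56 and 0.08) and EDARADD by 1.55 (1.36 and -0.19). The pseudogenes RPSAP9 and RPSAP52 differed by 1.86 and 2.56, and POTEE, which shares sequence with the actins, by 2.39. The metallothionein gene MT1X differed by 1.46 and C12orf23 by 0.87, and POTEE, MT1X and C12orf23 did not pass at 6 h on their own.

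HERPUD1 in the edited cells was at 378, 517 and 510 CPM, and EREG at 617, 759 and 354 CPM. In the 9 genes named here the library with the highest edited value was replicate 2 in 8 and replicate 3 in DNAJB9. Without control replicate 1 or without GLIS3 CRISPRko replicate 2, 1 gene passed this test.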

How the results depend on the processing

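At 6 h the main count of 35 (30 higher, 5 lower) became 181 with DESeq2 (167 and 14), 142 without a filter, 5 and 6 with limma on log2(TPM + 1) and log2(TPM + 0.1) (2 higher and 3 lower on the first, which also gave 82 and 27 of the 109 below), 54 and 91 with edgeR and DESeq2 on the 6 libraries alone, 1228 at an unadjusted p under 0.05 (628 and 600), 20 with a log2 fold change of at least 1, 4 without control replicate 1 and GLIS3 CRISPRko replicate 2, and 5 to 28 with any 1 library left out (5 without control replicate 1, 9 without GLIS3 CRISPRko replicate 2). TPM scaling also moved the median of all genes to -0.32 and -0.40. For the 6 h comparison DESeq2 gave an adjusted p to 3236 genes in the fit of the whole arm and to 1620 on the 6 libraries alone. The difference between the 6 h and other effects, 11 genes, became 75 with DESeq2, 95 without a filter, 0 and 1 with limma (1994 at an unadjusted p under 0.05 for the 0), 1096 unadjusted, 0 without both libraries, and 1 to 37 with a library left out (37 without GLIS3 CRISPRko replicate 2 at 24 h). The other times, 273, became 417 without a filter, 109 and 95 with limma, 1703 unadjusted, 22 at the larger change, and 158 to 364 with a library left out (158 without control replicate 3 at 12 h). The cytokine response, 1744, became 811 and 776 with limma, 2962 unadjusted, 989 at the larger change, and 1367 to 1513 with a library left out. VP64_A, 413 (204 higher, 209 lower), became 292 with limma at the smaller pseudocount (183 and 109), 1487 unadjusted, 239 at the larger change, and 298 to 338 with a library left out. GLIS3 kept its direction and did not pass at 6 h in any alternative that gave it an adjusted p (0.062 to 0.759), with -1.91 to -1.62 when a library was left out, and DESeq2 gave it no adjusted p. The cause of these shifts was not tested.

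Same-numbered libraries at 6 h deviated with correlations of 0.0147 to 0.121, over 0.1 in 1 of 3, and 2 of 3 correlated best with their own number, so the numbers were not taken as pairs. The replicate block gave 34 calls at 6 h (28 higher, 6 lower, 31 shared with the main count), 13, 263, 1732 and 433 in the other comparisons, and -1.82 for GLIS3 (adjusted p = 0.109). Of the 33 described genes none changed direction, which was largely fixed in advance since their groups did not overlap, and 4 passed with limma. The genes that changed sign were all uncalled. FAP became 0.000733 with DESeq2, 0.00327 with its size factors and 0.000933 on the 6 libraries, and ran from -0.11 to 0.048 with a library left out. IL11 became 0.078 with loess offsets and ran from -0.20 to 0.21 with a library left out (0.18 without control replicate 2). With limma at the 2 pseudocounts COL5A2 was -0.12 and -0.12, AK3 -0.29 and -0.30, GLIS2 -0.027 and -0.023, NFKBIZ -0.083 and -0.084, and FAS -0.028 and -0.029. Without both libraries PTGFR was 0.022, COL5A2 -0.019 and AK3 -0.000784. With a library left out AK3 ran from -0.057 to 0.16, SMARCA2 from -0.50 to 0.059 and COL3A1 from -0.49 to 0.010. Of 288 list medians 35 moved by at least the median SE of the list's members in the main fit, 31 of them with limma. GLIS3 rests on few counts, 3 to 5 per edited library at 6 h, where it missed the threshold, and 1 to 3 at 0 h, where it passed.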
